A study of Homo sapiens with 4 samples.

Results

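The miR-106b/25 cluster is a group of 3 microRNA hairpins, miR-106b, miR-93 and miR-25, that lie next to each other in an intron of MCM7, the gene of a subunit of the helicase that opens DNA for replication. Its members here were chosen by name: the 5p and 3p arms of the 3 hairpins, named with the prefix hsa- in the table, 6 of the 1644 miRNA names in the table of small RNA reads, with 148 of its 12689 isoforms. The rule uses names alone and no measured value. The reads come from HCT116, a widely used cell line from a human colorectal carcinoma, and the study asked how mismatched and G-U wobble pairs above the cleavage site of a primary miRNA affect its cutting by DROSHA. All 4 libraries were made from transfected HCT116 cells, 1 library for each condition. The first condition received the empty pCDNA3 plasmid, the second a mixture of pCDNA3 plasmids with wild-type pri-miRNAs, and the others the mixtures labelled mutant 1 and mutant 2, in which pri-miRNAs carried changes in their stems. The pri-miRNA mixtures also held a plasmid for pri-mir-16-1, which the study used as a reference. None of the plasmid sequences deposited with the counts encodes an arm of the cluster, so its reads are endogenous in every library.

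A clustered primary transcript such as this one is cut by the Microprocessor, the complex of DROSHA and DGCR8, into hairpin precursors, which DICER then cuts into duplexes of a 5p and a 3p strand. One strand is usually kept in an Argonaute protein as the guide, and its bases 2 to 8, the seed, pair with target mRNAs. A strand that starts at another base carries another seed. The cluster is a paralog of miR-17/92. MiR-106b and miR-93 are known to repress the cell cycle inhibitor CDKN1A, and miR-25 the pro-apoptotic gene BCL2L11, and MCM7 and the cluster are known to be transcribed in proliferating cells under E2F1.

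In GRCh38, the hg38 build that the counts use, MIR106B spans chr7:100093993-100094074, MIR93 chr7:100093768-100093847 and MIR25 chr7:100093560-100093643, all on the minus strand. MCM7 spans chr7:100092233-100101940 on the same strand. In its canonical transcript, which has 15 exons, the 3 hairpins lie in intron 13, a stretch of 771 bases, with miR-106b first in the direction of transcription, miR-93 145 bases after it and miR-25 another 124 bases on. The whole cluster covers 515 bases. Each of the 6 mature sequences occurred once in the chromosomes of hg38, so no second locus can have given the same full-length sequence.

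The mature sequences, of which all 6 were matched by name as given by RefSeq for GRCh38.p14, are shown because their seeds sort the arms. They are written 5′ to 3′ with the seed in capitals. The first pair shares 1 seed.
hsa-miR-106b-5p: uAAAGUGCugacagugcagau
hsa-miR-93-5p: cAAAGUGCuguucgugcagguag
The most abundant arm, miR-25-3p, carries the seed of the miR-92 family.
hsa-miR-25-3p: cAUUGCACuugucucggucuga
The other strands of the 3 duplexes each had a seed found in no other counted miRNA, among the 1460 of 1644 names with a RefSeq sequence.
hsa-miR-106b-3p: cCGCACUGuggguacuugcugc
hsa-miR-93-3p: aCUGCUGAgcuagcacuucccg
hsa-miR-25-5p: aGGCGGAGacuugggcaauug

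The hairpins of miR-106b and miR-25 show how each pair of arms is placed in its precursor. They are printed from the minus strand of GRCh38 with the annotated arms in capitals.
MIR106B: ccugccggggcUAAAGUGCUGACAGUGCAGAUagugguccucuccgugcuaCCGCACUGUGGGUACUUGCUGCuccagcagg
MIR25: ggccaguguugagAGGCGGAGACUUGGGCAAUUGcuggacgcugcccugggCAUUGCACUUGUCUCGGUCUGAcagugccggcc
In folds predicted by RNAfold, with free energies of -44.4 kcal/mol for MIR106B and -35.9 kcal/mol for MIR25, both hairpins held unpaired bases and wobbles within the first 13 positions from the 5p start. In MIR106B, positions 1, 2 and 10 were unpaired. Position 7 was a G-U wobble and position 9 a U-G wobble, with the base of the 5p arm given first. In MIR25, positions 5, 11 and 12 were unpaired and position 3 was a wobble. These are predictions from sequence, and no read in these libraries measures pairing.

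The libraries held 14544516, 17364117, 19834361 and 17136599 miRNA reads, given here as throughout in the order empty vector, wild type, mutant 1 and mutant 2 where no library is named. Levels are given as RPM, the reads of an arm per 1000000 reads of untransfected miRNAs, the 1608 names that no plasmid encodes. These held at least 70.5% of the reads of each library. With 1 library per condition there is no replicate and no test between conditions, and each interval (95%) covers counting error only, since the reads carry no molecular identifiers. Of the 5 miRNAs taken as marks of epithelial or colon cells, all were counted, from 31.8 RPM for miR-194-5p to 214063 RPM for miR-21-5p with the empty vector. Whether these 5 are particular to such cells was not tested. Of 5 miRNAs of other lineages, miR-133a-3p of muscle and miR-124-3p of neurons had no read, which allows at most 3 counted reads per library. MiR-223-3p, miR-150-5p and miR-122-5p had 7 to 28 reads per library. Only unambiguous reads were counted, and the loci of these lineage miRNAs were not checked. A low count or none therefore need not mean a low level.

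The cluster gave 380019 reads with the empty vector, 364171 with wild type, 345077 with mutant 1 and 417502 with mutant 2. In RPM these were 28399.7, 29748, 24600.7 and 27586.6. The lowest level was that with mutant 1, at 0.827 times wild type (0.823 to 0.831).

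MiR-25-3p was the most abundant arm in every library. It stood at 18837 RPM with the empty vector (18764 to 18911), 19873 with wild type, 15101 with mutant 1 and 17371 with mutant 2. It ranked between 11 and 14 among the untransfected miRNAs and gave 61.4 to 66.8% of the reads of the cluster. MiR-93-5p came next at 8119 RPM with the empty vector (8071 to 8167), 8205 with wild type, 8321 with mutant 1 and 8751 with mutant 2. Its levels were the most even of the 3 guide arms.

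Both arms of miR-106b were well below miR-93-5p, though all 3 hairpins share 1 host transcript. MiR-106b-5p was at 796 RPM with the empty vector (781 to 812), 908 with wild type, 669 with mutant 1 and 816 with mutant 2. MiR-106b-3p followed in the same order of libraries at 579.6 (567 to 593), 687, 445 and 583 RPM. Each had its highest level with wild type and its lowest with mutant 1.

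The remaining strands, miR-93-3p and miR-25-5p, are the minor strands of their duplexes. MiR-93-3p had 497, 520, 540 and 492 reads in the empty vector, wild-type, mutant 1 and mutant 2 libraries, or 37.1, 42.5, 38.5 and 32.5 RPM. MiR-25-5p had 405, 403, 356 and 492 reads, or 30.3, 32.9, 25.4 and 32.5 RPM. With the empty vector their intervals ran from 33.9 to 40.6 and from 27.4 to 33.4 RPM. MiR-93-3p was thus the higher of both beyond counting error there, as it was in the wild-type and mutant 1 libraries, and with mutant 2 both had the same number of reads. Ordered by level, the arms ran miR-25-3p, miR-93-5p, miR-106b-5p, miR-106b-3p, miR-93-3p and miR-25-5p in all libraries, apart from that tie.

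How far the plasmid mixtures went together with a change of the endogenous cluster was read from ratios between libraries. Of the 6 arms, 0 differed by more than 1.5-fold from the empty vector in the wild-type, mutant 1 or mutant 2 library. Of 476 untransfected miRNAs that averaged 50 reads or more, the 6 arms among them, 10.9% did so with wild type, 21.2% with mutant 1 and 9.45% with mutant 2. Those 3 comparisons share the empty vector library, so they are not independent of each other. Between the mutant 1 and wild-type libraries, 1 of the 6 arms passed 1.5-fold and it was lower, where 15.8% of the 476 passed in either direction and 12.4% were lower. That arm was miR-106b-3p, at 0.648 times its wild-type level (0.628 to 0.670). With TMM or DESeq2 size factors in place of the untransfected reads its ratio was 0.693 or 0.722, which did not pass 1.5-fold. The count against the empty vector also rests on the scale. Scaled by miR-16-5p, the reference of the study, which the pri-miRNA mixtures encode and the empty vector does not, all 6 arms were more than 1.5-fold lower in each of the 3 comparisons, but so were 85.3, 87.0 and 95.8% of the 476 with wild type, mutant 1 and mutant 2. With all miRNA reads 4 arms were so with mutant 1, beside 36.1% of the 476. These scalings multiply every miRNA of a library by 1 factor, which moved the median of the 476 to between -1.23 and -0.95 on the log2 scale with miR-16-5p and to -0.40 in mutant 1 with all miRNA reads, so nothing about the cluster in particular is read from these counts. With TMM or DESeq2 size factors 0 arms passed in any of the comparisons. With wild type, mutant 1 and mutant 2 against the empty vector, 2.73, 12.4 and 2.94% of the 476 were more than 1.5-fold lower with TMM. With DESeq2 size factors these shares were 2.73, 10.5 and 2.94%. Between mutant 1 and wild type 9.03% were lower with TMM and 7.35% with DESeq2 size factors.

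Against the empty vector, the arms stood between 1.01 times for miR-93-5p and 1.18 times for miR-106b-3p with wild type. The other 4 scalings put the cluster sum below 1 there, from 0.511 to 0.979 times, so the direction rests on the scale. In the mutant 2 library the arms stood between 0.875 times for miR-93-3p and 1.08 times for miR-93-5p. In the mutant 1 library they stood between 0.768 times for miR-106b-3p and 1.04 times for miR-93-3p. The SD of the log2 ratios over the 476 miRNAs, the 6 arms included and a miRNA at 0 with mutant 2 left out, was 0.40, 0.36 and 0.50 in the same order. The median of the 476 was itself off 1, most of all in the mutant 1 against the wild-type library, where it was 0.900 times (-0.15 on the log2 scale).

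Set against that median, the arms of miR-93 had higher ratios than the other 4 with mutant 1. Relative to the wild-type library and divided by the median ratio, miR-106b-3p was at 0.721 times, miR-106b-5p at 0.818, miR-25-3p at 0.844 and miR-25-5p at 0.857, while miR-93-3p was at 1.01 and miR-93-5p at 1.13. Of the 470 other miRNAs, 10.2% had a lower ratio than miR-106b-3p, 21.5% lower than miR-106b-5p and 26.4% lower than miR-25-3p. For miR-93-5p the share was 68.1%. Relative to the empty vector the same 4 arms of miR-106b and miR-25 were below the median with mutant 1, between 0.777 and 0.850 times, and both arms of miR-93 above it. Both pairs share the mutant 1 library, and the place of miR-93-3p rests on few reads. Its ratio to wild type ran from 0.803 to 1.02 with counting error, which overlaps the 0.669 to 0.889 of miR-25-5p, and so did the ratios to the empty vector, with 0.918 to 1.17 and 0.727 to 0.967. The arms of miR-93 did not go together with mutant 2, where relative to the empty vector and the median miR-93-3p was the lowest of the 6 arms at 0.841 times and miR-93-5p the highest at 1.04.

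A ratio of guide arms within a library needs no scaling between libraries. MiR-25-3p had 2.32 reads for each miR-93-5p read with the empty vector (2.30 to 2.34) and 2.42 with wild type (2.40 to 2.44), against 1.81 with mutant 1 (1.80 to 1.83) and 1.99 with mutant 2 (1.97 to 2.00). MiR-93-5p had 10.2, 9.03, 12.4 and 10.7 reads for each miR-106b-5p read in the empty vector, wild-type, mutant 1 and mutant 2 libraries. The ratio of miR-25-3p to miR-106b-5p moved less, from 21.3 with mutant 2 to 23.7 with the empty vector. In the mutant 1 library miR-93-5p was therefore high beside both neighbours. Adapter ligation and PCR can favour some sequences, so a ratio between miRNAs is not a ratio of molecules, and whether that bias was equal between libraries was not tested.

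Strand choice differed between the hairpins. MiR-25 and miR-93 gave almost all of their reads from 1 arm: miR-25-3p took 99.8% of the miR-25 reads in each library, 252065 of 252470 with the empty vector, and miR-93-5p took 99.5, 99.5, 99.5 and 99.6% of the miR-93 reads. In miR-106b neither arm had nearly all of the reads. MiR-106b-5p took 57.9% with the empty vector (57.2 to 58.6%), 57.0% with wild type (56.3 to 57.6%), 60.0% with mutant 1 (59.3 to 60.8%) and 58.3% with mutant 2 (57.6 to 59.0%). There were 1.32 to 1.503 reads of miR-106b-5p for each read of miR-106b-3p, against 193 to 269 reads of miR-93-5p for each of miR-93-3p and 534 to 622 of miR-25-3p for each of miR-25-5p.

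Among 241 hairpins of untransfected miRNAs with at least 50 reads in every library, the more abundant arm took a median of 96.2% of the reads with the empty vector, and 95.9% of the hairpins were more one-sided than miR-106b. For miR-93 that share was 21.6% and for miR-25 12.4%. The share of the guide arm moved by over 5 percentage points between libraries in 0 of the 3 hairpins in each pair of libraries, where 15.8% of the 241 moved so far with wild type, 24.5% with mutant 1 and 16.6% with mutant 2 against the empty vector, and 14.5% between mutant 1 and wild type. For miR-93 and miR-25, at 99.5 to 99.8% in the 4 libraries, this count says little, since a share so near its limit can hardly move by 5 points, and it does not show that their strand use was even.

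The base at which a strand starts sets its seed. The start of a 5p strand is cut by DROSHA and that of a 3p strand by DICER. With the empty vector, 10624 of 10656 miR-106b-5p reads started at the annotated base (99.7%), 107454 of 108640 miR-93-5p reads did (98.9%), 250166 of 252065 miR-25-3p reads did (99.2%), and so did all 405 miR-25-5p reads. In the other libraries these shares lay between 98.98 and 99.9%. The 2 DROSHA-cut starts with a guide strand, those of miR-106b-5p and miR-93-5p, were thus uniform.

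MiR-106b-3p had a pair of starts. With the empty vector, 4276 of its 7756 reads started at the annotated base (55.1%, 54.0 to 56.2%) and 3284 started 2 nt upstream (42.3%, 41.2 to 43.4%), with 175 reads between them. The upstream start held 39.0% of the reads with wild type (37.9 to 40.0%), 41.0% with mutant 1 (39.8 to 42.2%) and 39.9% with mutant 2 (38.8 to 40.9%). Among 165 untransfected miRNAs with at least 1000 reads in every library, the cluster's 4 abundant arms included, the median share at the annotated start was 98.3%, and 9.09% had a lower share than miR-106b-3p.

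The forms are printed from the hairpin, with bases 2 to 8 in capitals, to show what the start does to the seed. The upstream form was the most frequent isoform of the arm, with 3075 reads with the empty vector, 3032 with wild type, 2353 with mutant 1 and 3278 with mutant 2.
miR-106b-3p, upstream start: uACCGCACuguggguacuugcu
miR-106b-3p, annotated start, 2 nt shorter end: cCGCACUGuggguacuugcu
miR-106b-3p, annotated start and end: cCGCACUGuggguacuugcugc
Among the 1460 counted names with a RefSeq sequence, no annotated mature sequence has the seed of the upstream form, and none but miR-106b-3p itself has that of the other form. Because the upstream form is short at its 3p end by as much as it is long at its 5p end, it has the same length, 22 nt, as the annotated strand.

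Start and end were linked in miR-106b-3p. Of the reads with the upstream start, 93.6% ended 2 nt before the annotated end with the empty vector (92.7 to 94.4%), and 91.9 to 93.2% did in the other libraries. Of the reads with the annotated start, 43.1% ended there with the empty vector (41.6 to 44.6%), 26.4% ended 1 nt before the annotated end and 23.8% at it. The same class of reads was longer with mutant 1, where 27.4% ended 2 nt before the annotated end (25.9 to 28.9%) and 32.2% at it (30.7 to 33.7%). Reads with the upstream start had nearly the same mean end in all libraries, from -2.04 to -2.02 nt, while the mean end of those with the annotated start was -1.16 nt with the empty vector, -1.15 with wild type, -0.90 with mutant 1 and -1.04 with mutant 2.

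**Figure D1:**
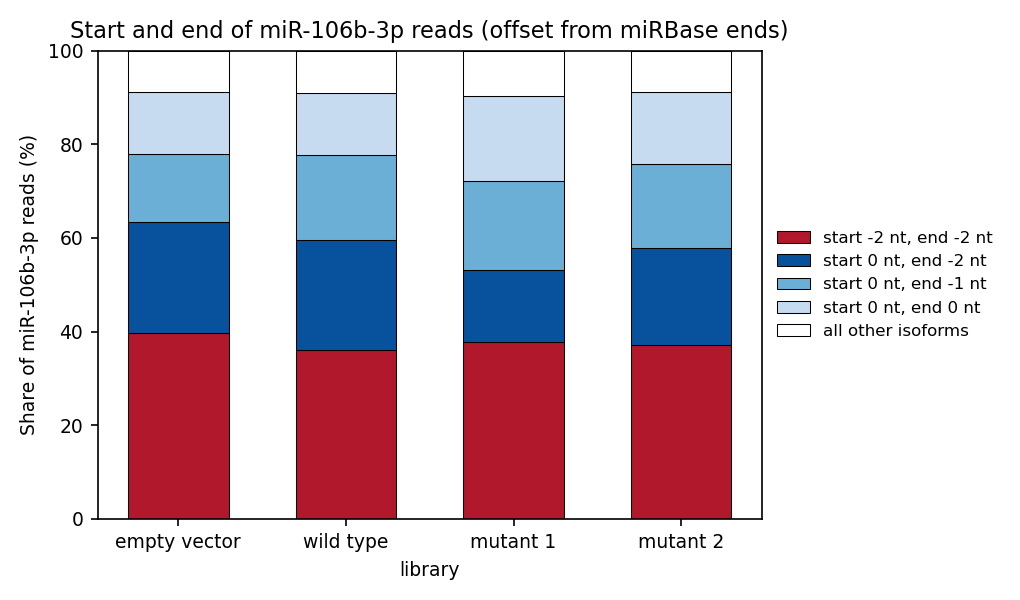
Share of miR-106b-3p reads (y axis, percent) by joint start and end offset from the miRBase ends in each library (x axis). Negative starts lie upstream and negative ends are shorter. The red segment, the upstream start with the 2 nt shorter end, holds 36.1 to 39.6% of the reads across the libraries, and the dark blue segment, the annotated start with the 2 nt shorter end, holds 23.8% with the empty vector and 15.5% with mutant 1.

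MiR-93-3p started at its annotated base in 79.9% of reads with the empty vector (76.1 to 83.2%), 80.8% with wild type (77.2 to 83.9%), 87.8% with mutant 1 (84.7 to 90.3%) and 86.4% with mutant 2 (83.1 to 89.1%). The intervals of the empty vector and mutant 1 libraries did not overlap, with 497 and 540 reads. A share at the annotated start that differed by over 5 points was seen in 0.606% of the 165 miRNAs between the wild-type library and the empty vector, in 1.82% for mutant 1, in 0.606% for mutant 2, and in 1.21% between mutant 1 and wild type. Those 165 have at least 1000 reads per library, which miR-93-3p does not, so the shares are not measured at like depth. None of the 4 abundant arms differed by that much.

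The 3p ends varied more than the starts in the 5 arms other than miR-106b-3p. Of the miR-106b-3p reads, 64.9% had the most frequent end with the empty vector and 55.1% the most frequent start. These shares were 60.9 and 58.5% with wild type and 58.9 and 57.9% with mutant 2. With mutant 1 they were 54.3 and 56.5%, so only there did its ends vary more than its starts. Of the reads with the empty vector, 87.6% of miR-25-3p and 67.9% of miR-93-5p ended at the annotated base, but 38.8% of miR-106b-5p, whose reads also ended 1 nt before it (25.03%) and 1 nt after it (27.2%). MiR-25-5p ended mostly 2 nt past its annotated end, in 62.5% of its 405 reads, and miR-93-3p mostly 1 nt past it, in 60.6% of its 497 reads. Their most frequent forms thus differ from the annotated sequences, as that of miR-25-5p shows, printed with the letters of the hairpin.
miR-25-5p, most frequent form: aGGCGGAGacuugggcaauugcu
The authors accepted reads with mismatches at the 3p end, so a base past the annotated end may be encoded or added later, and these cannot be told apart.

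In the mutant 1 library the 3p ends were longer. The mean end of miR-106b-5p was -0.078 nt with the empty vector, -0.034 with wild type, 0.15 with mutant 1 and 0.031 with mutant 2, and the share of its reads that ended 1 nt past the annotated end was 27.2, 29.6, 36.5 and 32.4% in the same order. For all 4 abundant arms the mean end was longest with mutant 1, by 0.23 nt over the empty vector for miR-106b-5p, 0.18 for miR-106b-3p, 0.092 for miR-93-5p and 0.079 for miR-25-3p. Most other miRNAs moved the same way. The mean 3p end was longer than with the empty vector in 87.3% of the 165 miRNAs with mutant 1, 77.6% with mutant 2 and 57.0% with wild type, and longer with mutant 1 than with wild type in 92.7%. The median difference between mutant 1 and the empty vector was 0.055 nt. Of the 161 other miRNAs, 94.4% had a smaller shift than miR-106b-5p, 88.2% a smaller one than miR-106b-3p, 70.8% than miR-93-5p and 64.0% than miR-25-3p. What the shift of the library went with was not tested.

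**Figure D2:**
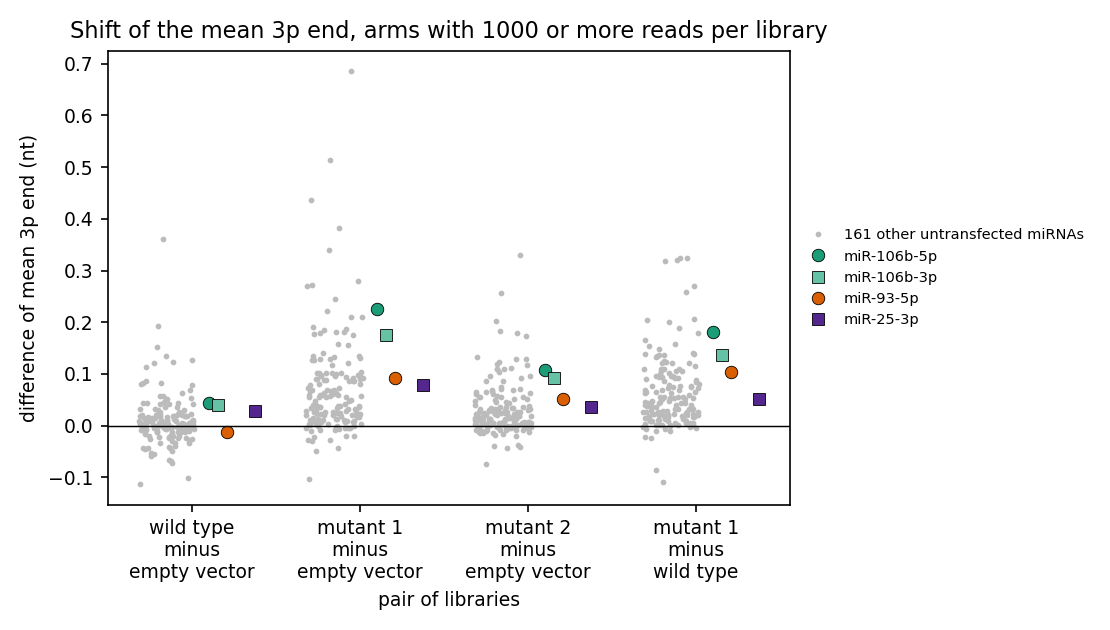
Difference of the mean 3p end in nt (y axis, positive is longer) for 4 pairs of libraries (x axis), with the 4 cluster arms of at least 1000 reads per library as coloured symbols and 161 other untransfected miRNAs as grey dots. In mutant 1 minus empty vector all 4 arms lie above 0, from 0.079 to 0.23 nt, as do most grey dots.

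The seeds of the cluster's guide arms are shared with miRNAs of other loci, among them miR-17/92 and, for miR-25-3p, the separate locus of miR-92b. The sequences of the abundant ones are printed for comparison.
miR-17-5p: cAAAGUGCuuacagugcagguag
miR-20a-5p: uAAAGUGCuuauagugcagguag
miR-92a-3p: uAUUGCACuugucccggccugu
miR-92b-3p: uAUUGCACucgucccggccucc
In the family of 8 counted miRNAs with the seed of miR-93-5p, miR-93-5p and miR-106b-5p together gave 119296 of 254639 reads with the empty vector, 46.8% (46.7 to 47.0%). The share was 50.4% with wild type, 42.7% with mutant 1 and 47.3% with mutant 2. MiR-93-5p was the most abundant member in every library. With the empty vector miR-20a-5p followed with 31.9% and miR-17-5p with 21.1%, while miR-106b-5p gave 4.18% and miR-106a-5p 0.140%. MiR-20b-5p, miR-519d-3p and miR-526b-3p had 0 to 2 reads per library.

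The lower share with mutant 1 went with a higher level of miR-20a-5p, which was at 6076 RPM with the empty vector, 5206 with wild type, 7777 with mutant 1 and 6478 with mutant 2. The whole family was at 19030, 18098, 21078 and 20211 RPM. The cluster's own part of it differed less, as given above for miR-93-5p.

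In the family of 5 counted miRNAs with the seed of miR-25-3p, miR-25-3p gave 48.1% of the reads with the empty vector (47.9 to 48.2%), 52.5% with wild type, 50.5% with mutant 1 and 50.9% with mutant 2. MiR-92b-3p gave 35.1, 29.3, 27.2 and 29.7%, and miR-92a-3p 16.6, 17.9, 21.9 and 19.1%. MiR-32-5p had 1275 to 1621 reads per library and miR-363-3p 0 to 2. In both families these are shares of counted reads. Only unambiguous reads were counted, and the loci of the family members outside the cluster were not checked. Reads of a sequence that lies at several loci may be missing, and the share of the cluster may then be too high. The family of miR-25-3p was at 39202 RPM with the empty vector, 37834 with wild type, 29892 with mutant 1 and 34114 with mutant 2. It was lowest with mutant 1, where miR-25-3p and miR-92b-3p were both at their lowest.

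Likeness of pattern was measured as the root mean square distance of centred log2 levels over the 4 libraries, among 305 untransfected miRNAs that averaged 200 reads or more and are not in the cluster. Nearest to miR-25-3p were miR-130b-5p (0.015), miR-10a-3p (0.026) and miR-455-5p (0.031). Nearest to miR-93-5p were miR-200c-3p (0.022), miR-561-5p (0.024) and miR-194-5p (0.029). Nearest to miR-106b-5p were miR-361-5p (0.025), miR-152-3p (0.026) and miR-1307-3p (0.042). Within the cluster, miR-106b-5p lay 0.056 from miR-25-3p but 0.17 from miR-93-5p, where the median distance of the 305 miRNAs to miR-106b-5p was 0.18. Over 4 libraries with no replicates these distances describe the libraries and carry no test.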

How the data were processed

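The authors used cutadapt to remove adapters, retained lengths of 18 to 26 nt, aligned the reads to hg38 with Bowtie2 and assigned unambiguous reads to miRBase loci. The deposited values are raw counts of reads per miRNA isoform, without normalization, and a blank cell was read as 0. An isoform is a miRNA with the offsets of its 5p and 3p ends from the annotated ends. The direction of the 3p offset is not stated with the counts and was inferred from read lengths. This used 10981 isoforms of the 1460 names of 1644 that matched a RefSeq mature sequence. Read one way, all lengths fell within 18 to 26 nt, and with the opposite sign for the 3p end 1707 fell outside. The opposite sign for the 5p end was not tried, and the upstream start of miR-106b-3p rests on the sign used. Ends are given here with positive values past the annotated 3p end.

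Counts were summed per arm and divided by the untransfected miRNA reads of the library (all names but those of the deposited plasmid sequences, miR-182-5p and miR-16-1-3p). Each sample is 1 library of 1 condition, so no test was run. Intervals at 95% are exact Poisson for levels, Wilson for shares and normal on the log scale for ratios, and depth sets their width. Comparisons were wild type, mutant 1 and mutant 2 against the empty vector and mutant 1 against wild type. Alternatives were other scalings (all miRNA reads, miR-16-5p, the TMM factors of edgeR 4.0.16 and the size factors of DESeq2 1.42.0 in R 4.3.3), other minimums (10 and 200 reads, or 1 read in each library compared), a 2-fold threshold, and reads of the miRBase start, the most frequent isoform or 1 of the 3p ends only.

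The miRNAs named are the 6 arms, all miRNAs that share a seed with one, the arms of the paralogous clusters miR-17/92 and miR-106a, the 3 nearest in pattern to each guide arm (the more abundant arm with the empty vector), miR-16-5p and 10 miRNAs that mark cell lineages. The rule for the members uses names alone, but the members and lists were chosen with earlier results of these data known. Loci are from GENCODE release 44 and folds from RNAfold 2.7.2. Calculations used scipy 1.17.1, numpy 2.4.6 and pandas 2.3.3 under Python 3.11.15, and matplotlib 3.10.9 for figures. The procedure was run on simulated counts with Poisson noise only and planted changes well past 1.5-fold, scaled by the miRNAs left unchanged. That simulation does not cover variation between libraries or smaller changes.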

Additional observations from a re-analysis of the deposited data

How the results depend on the processing

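No paired analysis was possible because each condition has 1 library, and for the same reason no library could be left out. The cluster sum of wild type against the empty vector changed side of 1 with the scale: it was 1.05 times as reported, 0.803 with all miRNA reads, 0.511 with miR-16-5p, 0.979 with TMM and 0.973 with DESeq2 size factors. Mutant 1 against the empty vector was 0.666, 0.418 and 0.897 with all miRNA reads, miR-16-5p and DESeq2 size factors, mutant 2 was 0.932, 0.396, 0.935 and 0.939 with the 4 scalings in that order, and mutant 1 against wild type was 0.818, 0.884 and 0.921 with miR-16-5p, TMM and DESeq2 size factors. MiR-16-5p itself, which a plasmid encodes, was at 16944 RPM with the empty vector and 34753 to 41556 in the others, and scaled by it 6 of 6 arms passed 1.5-fold in all 3 comparisons with the empty vector, and 85.3 to 95.8% of the 476 miRNAs were as much lower. With all miRNA reads 4 did so in mutant 1, beside 36.1%. The 1 arm that passed between mutant 1 and wild type became 0 with TMM, DESeq2 size factors or a 2-fold threshold, with ratios of 0.693 and 0.722 for the first 2 beside 0.648. The share of the 476 miRNAs more than 1.5-fold lower fell as well, from 12.4% to 9.03% with TMM and 7.35% with DESeq2 size factors. The share of untransfected miRNAs past 1.5-fold was 21.6, 19.9 and 27.7% at a mean of 10 reads for wild type, mutant 2 (both against the empty vector) and mutant 1 against wild type, 7.07 and 5.79% at 200 reads for the first 2, and 36.0, 43.1, 35.8 and 39.7% at 1 read in each library for wild type, mutant 1 and mutant 2 against the empty vector and mutant 1 against wild type.

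Shares within a library moved with the isoforms counted. With the empty vector the guide share was 71.3% for miR-106b and 99.6% for miR-93 over reads at the miRBase start, and 99.6% for miR-93 and 99.9% for miR-25 over the most frequent isoforms. The annotated start share of miR-106b-3p was 36.7% within its most frequent 3p end and 95.7% within the annotated 3p end, and that of miR-93-3p 87.4% and 95.9%. The miR-25-3p share of its seed family was 48.3% over reads at the miRBase start. Of the 70 alternative values for the main comparisons, 39 moved by more than their counting interval (counts, by 1.5 times) and 31 did not, and of the others, mainly single arms, 102 moved and 60 did not. For the minor arms, with 356 to 540 reads, depth limits any difference to the counting intervals given.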

Other observations

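The paralogous clusters miR-17/92 and miR-106a have 16 arms in the counts, of which 13 had a mean of at least 50 reads. Of these 13, 3 were more than 1.5-fold higher than with the empty vector with wild type, 5 with mutant 1 and 2 with mutant 2, and 0 were lower, beside 9.24, 8.82 and 7.35% higher and 1.68, 12.4 and 2.10% lower among the 476 untransfected miRNAs. Over 13 arms, a count of 0 lower is near those shares of lower miRNAs. These comparisons share the empty vector library, and there is no replicate. MiR-18a-5p, whose seed no arm of the miR-106b/25 cluster shares, was at 464 RPM with the empty vector, 883 with wild type, 1075 with mutant 1 and 888 with mutant 2. MiR-19a-3p was at 527, 585, 967 and 681 RPM in the same order. MiR-17-5p differed less, with 4011, 3755, 4283 and 4137 RPM. The cluster in MCM7 has no miR-18 or miR-19 arm.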
